A study of Mus musculus with 4 samples.

Results

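Ghrl and Mboat4 encode the hormone ghrelin and the enzyme that acylates it, and they were followed as 2 of the 32288 features of a single-cell RNA dataset from injured mouse pancreas. Both genes were read in every cell type the authors had labelled. The dataset held 21140 cells from 4 mice, of which 13362 had a deposited cell type (8 types) and 2586 of these also a tuft or enteroendocrine subtype (9 subtypes). The remaining 7778 cells had no deposited type and served to measure background. All mice carried Ptf1aCre-ERTM;ROSAYFP/+, a tamoxifen-inducible Cre under control of the acinar gene Ptf1a together with a Cre-dependent yellow fluorescent reporter, and had been backcrossed into CD-1. All received tamoxifen by gavage and then, from 10 weeks of age, caerulein, a secretagogue peptide that causes pancreatitis. The only group difference was the length of caerulein treatment, 2 weeks (2 mice) or 4 weeks (2 mice). No uninjured pancreas was analysed here. Cells positive for EYFP were sorted, so a labelled cell descends from a cell in which the Cre had been active; every cell with a deposited type had at least 1 EYFP UMI (unique molecular identifier, 1 count per captured RNA molecule).

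Ghrelin is a peptide hormone best known from endocrine cells of the stomach, where it is released during fasting, and from the epsilon cells of the fetal islet, which become rare in the adult pancreas. The peptide activates its receptor, the growth hormone secretagogue receptor Ghsr, only after a serine near its start has been joined to a medium-chain fatty acid. That step is made by ghrelin O-acyltransferase, the product of Mboat4, a membrane enzyme of the endoplasmic reticulum. A cell that makes active ghrelin therefore needs the hormone gene, the acyltransferase and a prohormone convertase that cuts the mature peptide out of its precursor.

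The acylated serine and the paired residues that mark the enzyme family are shown because they define the relation between the 2 genes. Ghrl lies on the minus strand of chromosome 6 at chr6:113716119-113719880 (GRCm38, GENCODE vM21) and has 5 exons and 117 codons in the transcript used. Mboat4 lies on the plus strand of chromosome 8 at chr8:34115030-34125182, with 3 exons and 435 codons. The Ghrl stretch covers codons 24 to 51 (84 coding bases, chr6:113719182-113719360, with an intron of the gene between them) and encodes the mature hormone; capitals mark codon 26, the serine that is acylated. The Mboat4 stretch covers codons 303 to 342 (120 coding bases, chr8:34124317-34124436); capitals mark the asparagine at codon 307 and the histidine at codon 338, which are conserved among membrane-bound O-acyltransferases.
Ghrl coding stretch: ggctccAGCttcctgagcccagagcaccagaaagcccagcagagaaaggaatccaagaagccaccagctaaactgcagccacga
Mboat4 coding stretch: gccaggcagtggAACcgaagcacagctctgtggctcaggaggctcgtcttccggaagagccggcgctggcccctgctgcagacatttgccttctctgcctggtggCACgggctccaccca
The counts are per gene and do not resolve these bases. Genes on the other strand overlap the 2 loci, and whether counting used strand was not given in the sources used here. Of these, Gm26982 had 459 UMIs and Gm39158 had 4 UMIs over all cells, far below Ghrl.

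The 4 libraries held 4715 to 6255 cells and 72459531 to 103610807 UMIs. A total of 67 cell barcodes occurred in more than 1 library and belonged to 139 cells, of which 2 were Epsilon cells. Immune-type cells without a deposited type (at least 3 UMIs over Ptprc, Cd52, Laptm5, Coro1a and Rac2 and no Epcam UMI, 2729 cells, 572 to 761 per mouse) were used as the background, since immune cells are not a usual source of ghrelin in this organ. In what follows the order of values is always 2-week mouse 1, 2-week mouse 2, 4-week mouse 1, 4-week mouse 2.

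Ghrl was most abundant in the cells the authors named Epsilon (Ghrl+), where it was among the most abundant transcripts of the cell, and was lower but clearly above background in Ppy+ and Delta (Sst+) cells. In the 377 Epsilon cells (103, 86, 102 and 86 per mouse) Ghrl was at 199258, 47148, 285043 and 163603 counts per 1000000 UMIs of the summed cells (CPM), a mean of 173763 ± 98603 (SD, n = 4 mice). The 4 mice differed widely, and 2-week mouse 2 was the lowest. In Ppy+ cells, a subtype named for pancreatic polypeptide in which 72.1% of cells had a Ppy UMI and 100% a Pyy UMI, Ghrl was at 33058, 20321, 21030 and 8069 CPM. In Delta cells, which make somatostatin, it was at 8998, 12294, 24039 and 7164 CPM. All Epsilon values lay above all Ppy+ values, whereas the Ppy+ and Delta ranges overlapped, and both lay above every mouse of the other 2 enteroendocrine subtypes. EEC-Progenitor (Neurog3+) cells had 255, 22.3, 283 and 93.8 CPM of Ghrl. ECL (Tac1+) cells, the enterochromaffin-like subtype, had 610, 21.9, 141 and 55.0 CPM. These ranges overlapped each other and that of the immune-type background, which was at 236, 33.3, 320 and 100.5 CPM. No test was made between cell types, because the authors had defined the types on the same counts and named 1 of them by Ghrl.

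**Figure D1:**
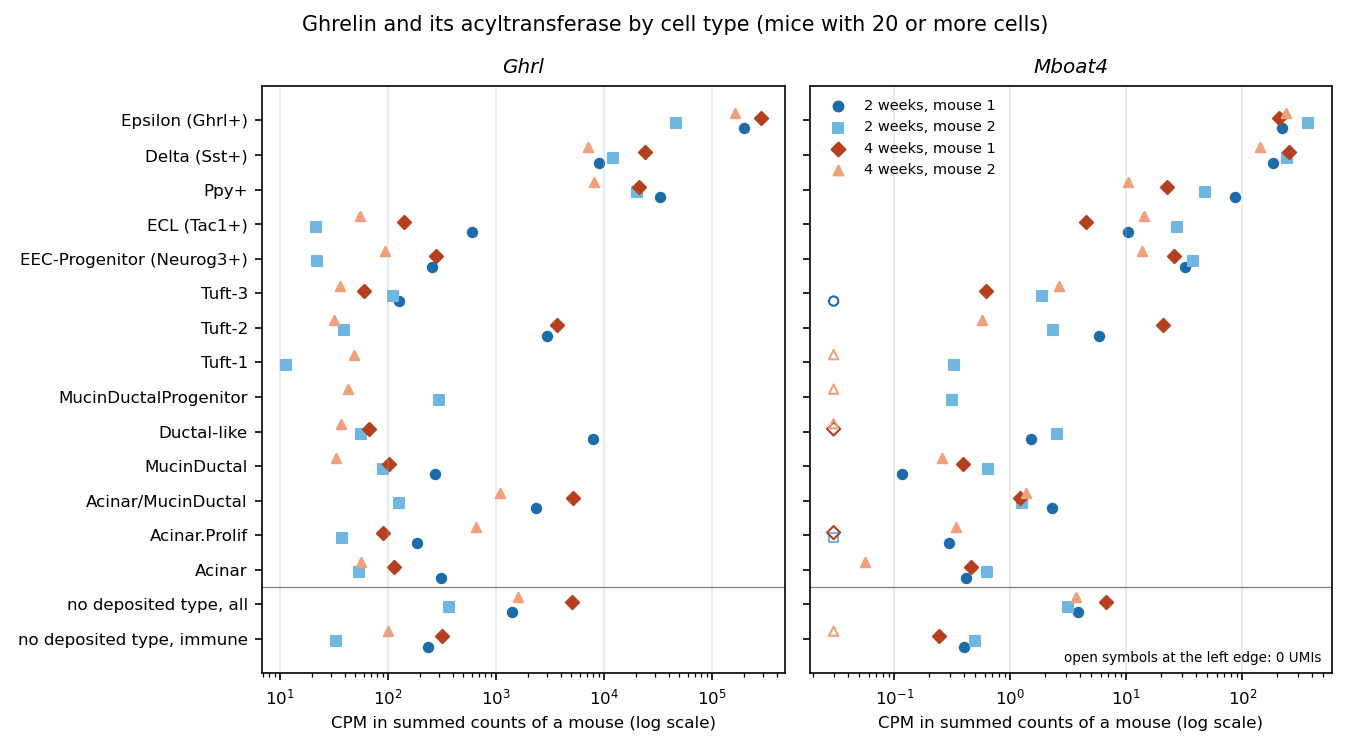
Summed Ghrl (left) and Mboat4 (right) in CPM on a log axis for each deposited cell type or subtype and for cells without a type, 1 symbol per mouse, for mice with at least 20 cells of that label; open symbols at the left edge stand for 0 UMIs and the grey line separates the cells without a type. Ghrl is highest in Epsilon cells in all 4 mice, and Mboat4 has similar levels in Epsilon and Delta cells.

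The background itself followed the library. Over all cells of a mouse together, Ghrl was at 4729, 797, 7872 and 2524 CPM, and the immune-type cells had 5.00%, 4.19%, 4.06% and 3.98% of that level. The mouse with the least Ghrl in its library thus also had the least Ghrl in its immune-type cells. The EEC-Progenitor level was 1.08, 0.669, 0.884 and 0.933 times the immune-type level of the same mouse. At these levels a Ghrl UMI in a progenitor or an immune-type cell is not read here as expression. Whether some progenitors express Ghrl was not tested.

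The share of cells with at least 1 Ghrl UMI was of little use for the same reason. It was 98.1%, 82.6%, 95.1% and 87.2% in Epsilon cells, but also 72.5%, 17.7%, 38.8% and 34.1% in immune-type cells, whose median depth was 4213 to 5711 UMIs against 11317 to 16490 in Epsilon cells. After every cell was thinned to 1500 UMIs, the expected share was 97.2%, 69.3%, 90.5% and 77.8% in Epsilon cells. The thinned share in EEC-Progenitor cells, 20.9%, 3.61%, 15.9% and 9.87%, lay below that of the immune-type cells (33.6%, 6.15%, 16.2% and 15.1%) in all 4 mice. Epsilon cells therefore stood apart from background in every mouse by the depth-matched share, and progenitors did not. In Ghrl UMIs per cell, with no depth match, progenitors were above the immune-type cells in every mouse (0.325 to 3.87 against 0.212 to 1.75). Progenitors were also the deeper cells, and 1 progenitor held 91 of the 174 Ghrl UMIs in 2-week mouse 1. In 4-week mouse 1 another held 120 of 285. The part of depth was not tested.

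Mboat4 was a low-abundance transcript with almost no background. The immune-type cells had 0.395, 0.494, 0.241 and 0 CPM, 5 UMIs in 2729 cells. In Epsilon cells Mboat4 was at 218, 370, 209 and 235 CPM, a mean of 258 ± 75.3 (SD, n = 4 mice), or 3.90, 4.93, 3.33 and 3.27 UMIs per cell. At least 1 Mboat4 UMI was found in 90.3%, 88.4%, 85.3% and 76.7% of Epsilon cells; for the lowest mouse the exact (Clopper-Pearson) 95% interval was 66.4% to 85.2%, which covers counting error only. Most Epsilon cells of every mouse therefore carried the acyltransferase transcript.

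Delta cells had Mboat4 at nearly the Epsilon level, although their Ghrl was far lower. The Delta values were 183, 244, 254 and 141 CPM (mean 205 ± 53.1, SD, n = 4 mice), and 81.6%, 71.1%, 59.4% and 58.6% of Delta cells had an Mboat4 UMI. By CPM, Epsilon was above Delta in 3 of 4 mice. Because Ghrl takes a large part of the Epsilon total, the levels were also scaled to the UMIs other than Ghrl (non-Ghrl CPM): 273, 388, 292 and 282 in Epsilon and 184, 247, 260 and 142 in Delta. On that scale Epsilon was above Delta in 4 of 4 mice. Ppy+ cells, with more Ghrl than Delta cells on average, had less Mboat4: 86.1, 47.5, 22.3 and 10.3 CPM.

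Mboat4 was also present in EEC-Progenitor cells, where Ghrl was not distinguishable from background by CPM or by the depth-matched share. It was at 32.3, 37.2, 25.8 and 13.6 CPM, and 20%, 19.3%, 18.8% and 8.42% of the 391 progenitors had an Mboat4 UMI. Thinned to 1500 UMIs the shares were 4.37%, 4.89%, 4.02% and 2.25%, against 0.106% at most in immune-type cells. Relative to the immune-type cells of the same mouse the level was 81.8, 75.3 and 107 times higher in the 3 mice with any Mboat4 UMI there. ECL cells had 10.4, 27.1, 4.46 and 14.2 CPM of Mboat4, within or below the progenitor range. The progenitor Mboat4 values thus stood clear of background in each mouse, while the Ghrl values over all progenitors, by CPM or depth-matched share, did not.

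The number of Ghrl UMIs for each Mboat4 UMI summarises these differences. It was 912, 127, 1367 and 695 in Epsilon cells and 384, 428, 941 and 783 in Ppy+ cells. In Delta cells it was 49.2, 50.4, 94.8 and 50.8, below the Epsilon ratio in every mouse. In EEC-Progenitor cells it was 7.91, 0.6, 11.0 and 6.88. Progenitors thus had fewer Ghrl UMIs for each Mboat4 UMI than Epsilon, Ppy+ and Delta cells in every mouse. This rested on 154 Mboat4 UMIs in all, with Ghrl at background by CPM. In ECL cells it was 58.6, 0.808, 31.5 and 3.88 on 41 Mboat4 UMIs, below the progenitors in 4-week mouse 2.

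Counted over whole libraries, Epsilon cells held 81.4%, 65.5%, 81.5% and 82.8% of all Ghrl UMIs of their mouse. They held 60.5%, 51.8%, 58.1% and 65.0% of all Mboat4 UMIs, of which the libraries had 665, 818, 585 and 432. Delta cells held a further 14.7%, 17.4%, 13.7% and 11.3% of Mboat4. Cells without a type held 3.87%, 5.88%, 11.0% and 8.42% of Ghrl. The Epsilon share was thus lower for the acyltransferase than for the hormone in each mouse.

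Outside the enteroendocrine subtypes, Ghrl sums differed widely between mice. Ductal-like cells had 8005, 56.7, 67.7 and 36.7 CPM of Ghrl, and Tuft-2 cells had 3011, 39.4, 3707 and 32.1 CPM. Acinar/MucinDuctal cells, an intermediate type, had 2389, 128, 5152 and 1107 CPM. Acinar cells had 311, 54.2, 114 and 57.3 CPM, close to background. In 79 of 1955 Acinar/MucinDuctal cells (4.04%) Ghrl made up at least 1% of the UMIs; of these, 31 had a UMI of the endocrine granule gene Chga and 3 had an Mboat4 UMI. Over all typed cells other than these and the 5 enteroendocrine subtypes, such cells numbered 16 of 10138 (0.158%). Without the top 5% of cells by UMIs, mean Ghrl in Tuft-2 cells went from 1697 to 82.4 CPM (10.3 to 212 by mouse). It did not fall in Ductal-like (2042 and 2160 CPM) or Acinar/MucinDuctal cells (2194 and 2602 CPM). The 79 Acinar/MucinDuctal cells were shallower than the rest (median 2387 against 3798.5 UMIs), and 57 had under 3000 UMIs. Leaving out the deepest cells could thus hardly remove them. The Ductal-like mean came almost wholly from 2-week mouse 1. Mboat4 in Tuft-2 cells rested on 37 UMIs.

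The Epsilon label was checked against genes other than Ghrl. Etv1, an ETS-family transcription factor enriched in ghrelin cells, was at 203, 292, 211 and 295 in non-Ghrl CPM; it was higher in Ppy+ cells (306, 307, 318 and 316) and lower in Delta cells (mean 64.0), so it does not mark Epsilon cells alone. All 8 pan-endocrine markers were detected, summing to 3872 to 4873 non-Ghrl CPM. Markers of the neighbouring subtypes were present: those of Delta cells (Sst, Hhex and Rbp4) summed to 2299, 1165, 3071 and 3382 non-Ghrl CPM, of which Rbp4, which was higher still in Ppy+ cells, made up 2233, 915, 2874 and 2928, and the pair Ppy and Pyy to 63.8, 463, 171 and 2215. Their part in the Epsilon values was not tested. Summed in the same way, 6 mucin genes were at 884 to 1607, 5 ductal genes at 205 to 368, 3 alpha-cell genes at 429 to 1564, 4 enterochromaffin genes at 95 to 151 and 4 endocrine progenitor genes at 907 to 1353. Of the alpha-cell sum Ttr made up 1060, 424, 1562 and 941, while Gcg was found in 0.531% of Epsilon cells. Of the enterochromaffin sum Fev made up 88.9, 120, 128 and 139, while Tph1 had 2 UMIs. Lower sums were found for other types, at 9.44 to 18.3 for 6 tuft genes, 15.6 to 56.1 for 5 beta-cell genes, 4.01 to 56.8 for 4 fibroblast genes, 0 to 3.66 for 3 endothelial genes and 7.01 to 43.8 for 5 immune genes. Within these lists Il25, G6pc2 and Kdr had 0 UMIs. The 8 acinar enzyme markers were all present and summed to 13925, 6322, 11059 and 12240 non-Ghrl CPM; their part in the Epsilon values was not tested.

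Ghrl varied between Epsilon cells over a wide range. Its median share of a cell's UMIs was 14.2%, 0.745%, 12.5% and 4.37%, and the cell with the most had 63.3%, 29.0%, 73.6% and 68.8%. At least 1% was reached by 270 of the 377 cells, which is 90.3%, 47.7%, 81.4% and 61.6% by mouse. At least 10% was reached by 159 cells, or 59.2%, 16.3%, 56.9% and 30.2%. At the other end, 33 cells had no Ghrl UMI, and 69 cells (18.3%) lay at or below the 99th percentile of the immune-type cells of their mouse (0.170%, 0.0528%, 0.293% and 0.102% of UMIs). These cells with the Epsilon label and a Ghrl share within that percentile came from all 4 mice (5, 28, 13 and 23 cells). The cutoff is a share of UMIs from shallower cells (median depth 4213 to 5711 UMIs against 11317 to 16490 in Epsilon cells). A deeper cell at or below it can therefore hold more Ghrl UMIs than most immune-type cells. The part of depth was not tested.

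**Figure D2:**
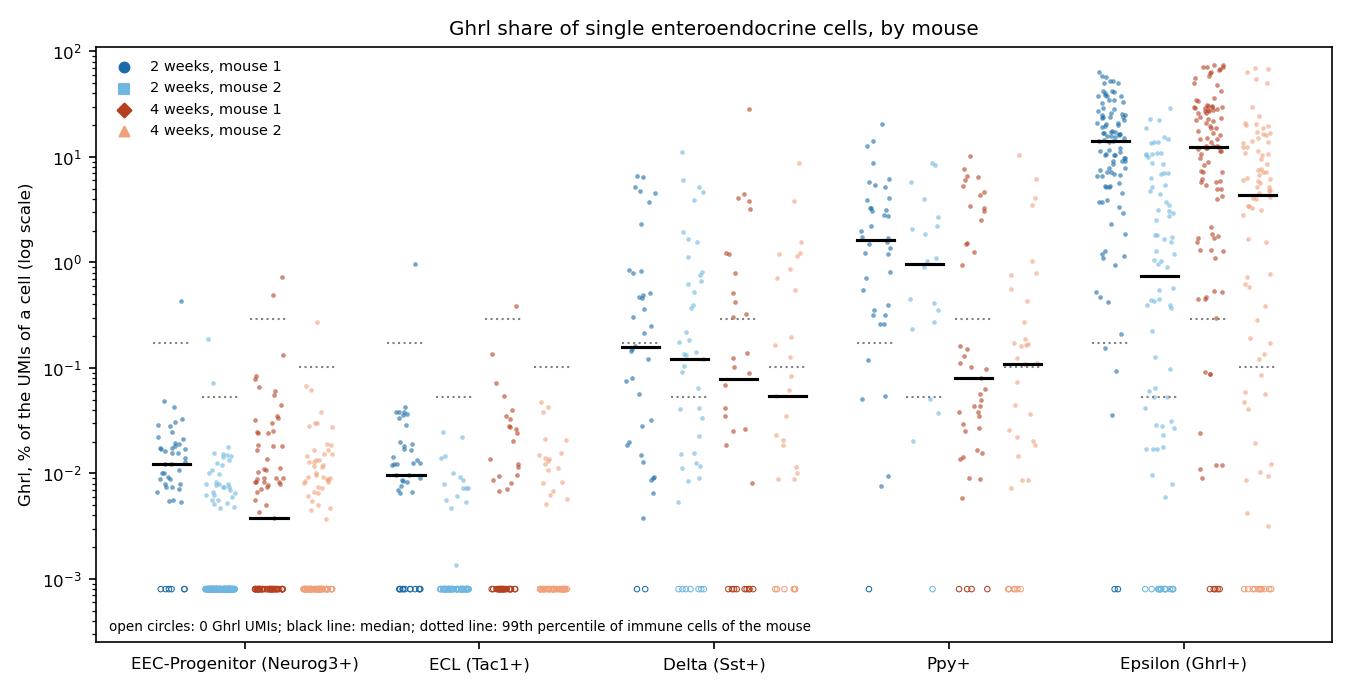
Ghrl as a percent of the UMIs of each cell, on a log axis, for the 5 enteroendocrine subtypes and each mouse; the black line is the median (not drawn where it is 0), the dotted line is the 99th percentile of the immune-type cells of that mouse, and open circles are cells with 0 Ghrl UMIs. Most Epsilon cells lie above the dotted line, Delta and Ppy+ cells lie on both sides of it, and nearly all progenitor and ECL cells lie below.

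By the same cutoff, with the same limit, the other subtypes were mixed or at background. In Delta cells 76 of 144 (52.8%) lay at or below that background percentile and 29 reached 1%; in Ppy+ cells 56 of 140 (40%) lay at or below it and 55 reached 1%. In EEC-Progenitor cells 385 of 391 (98.5%) and in ECL cells 215 of 217 (99.1%) lay at or below it, and none reached 1%. Without the top 5% of each mouse and subtype, 26 of 135 Delta cells and 50 of 132 Ppy+ cells reached 1%.

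The Delta cells with Ghrl also carried the hormone of their own subtype. Of the 29 Delta cells with at least 1% Ghrl, 28 had 10 or more Sst UMIs, with a pooled median of 502 against 1048 in the other 115; the median was lower in 3 mice and higher in 2-week mouse 2 (1085 against 787). Mboat4 was found in 72.4% of the first and 67.8% of the second set, a small gap beside that in Ppy+ cells. Among Ppy+ cells, 26 of the 55 with at least 1% Ghrl (47.3%) and 11 of the other 85 (12.9%) had an Mboat4 UMI, at median depths of 15704 and 13783 UMIs. By mouse the shares were 52%, 60%, 40% and 20% against 20%, 30%, 6.67% and 10%, on as few as 5 cells. The median Ppy count was 1 UMI in the Ghrl-high set and 1563 in the other, while Pyy, the related peptide YY, had medians of 1296 and 1617. Of the 55, 21 had 10 or more Ppy UMIs and all 55 had 10 or more of Pyy. Since 25 and 10 of the 55 cells came from the 2-week mice, where Ppy was lower, the pooled medians mix mouse with Ghrl class. By mouse the median Ppy count was 1, 0, 1 and 0 in the Ghrl-high set and 643, 0, 2310.5 and 1625 in the other. In non-Ghrl CPM Ppy was lower in the Ghrl-high set of every mouse (19381, 44009, 30398 and 36311 against 58073, 62376, 190426 and 114426). These splits used Ghrl itself and are descriptions with no test.

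Within Epsilon cells the share with Mboat4 was higher in each higher bin of Ghrl with cells of all mice pooled by their Ghrl share. It was 67.1% (49 of 73 cells) under 0.1% Ghrl, 79.4% (27 of 34) from 0.1% to 1%, 85.6% (95 of 111) from 1% to 10% and 95% (151 of 159) above 10%. Median depth was 11118, 11128, 12508 and 17707 UMIs in these bins, so depth moved the same way, and its part was not tested. The mice entered the bins unequally, with 33 of the 73 cells of the lowest bin and 14 of the 159 of the highest from 2-week mouse 2. In that mouse the Mboat4 level was 393, 510, 319 and 397 non-Ghrl CPM from the lowest to the highest bin, with no steady increase, while in 4-week mouse 2 it was 143, 166, 246 and 435. In Delta cells the first 3 bins had 63.4% (45 of 71), 75% (33 of 44) and 70.4% (19 of 27). In Ppy+ cells they had 14% (7 of 50), 11.4% (4 of 35) and 44% (22 of 50). Epsilon and Delta cells with almost no Ghrl thus carried Mboat4 in most cells, while Ppy+ cells with almost no Ghrl mostly did not.

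Epsilon cells with much and with little Ghrl were then set side by side on other genes, within each mouse and in non-Ghrl CPM (61, 14, 58 and 26 cells with at least 10% Ghrl; 10, 45, 19 and 33 cells under 1%). Of 10497 genes with a mean over both sets of at least 5 non-Ghrl CPM, 13.3% were higher and 12.1% lower in the Ghrl-high cells of all 4 mice, which is the background for the counts that follow. Among 8 measured genes that process, acylate or degrade ghrelin, 6 were higher in 4 of 4 mice and none lower. Of the 6, Pcsk2 and Bche averaged under 5 in the Ghrl-low cells and met the filter only through the Ghrl-high cells. The convertase Pcsk1 was at 234 against 112 (means over mice), its relative Pcsk2 at 57.3 against 2.86 and the convertase inhibitor Pcsk1n at 647 against 173. Carboxypeptidase E (Cpe) was at 1092 against 513, the Pcsk2 chaperone Scg5 at 1040 against 382 and Bche, a serum esterase that can remove the acyl group, at 17.5 against 1.77. Mboat4 itself was at 313, 397, 331 and 435 in the Ghrl-high cells and 159, 424, 129 and 150 in the others, higher in 3 of 4 mice. General granule genes were also higher in 4 of 4 mice, namely Scg2 (172 against 1.65), Scg3 (265 against 87.1), Chgb (408 against 109) and Syp (99.4 against 67.9). Of these, Scg2 averaged under 5 in the Ghrl-low cells and met the filter only through the Ghrl-high cells. Chga was higher in 3 of 4. The processing genes thus differed together with general granule genes, and the acyltransferase was higher in all but 1 mouse.

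The transcription factors differed in the opposite sense. Of 15 endocrine transcription factors, none was higher in the Ghrl-high cells of 4 of 4 mice and 9 were lower. Lower in all 4 mice were Hhex (38.3 against 361 on average), Pax4 (1.59 against 40.0), Fev (76.7 against 198), Insm1 (273 against 603), Neurod1 (621 against 854), Neurod2 (36.4 against 95), Sox4 (627 against 1098), Myt1 and St18. Of these, Pax4 averaged under 5 in the Ghrl-high cells and met the filter only through the Ghrl-low cells. The delta-cell markers did not move together, since Rbp4 was higher in 4 of 4 mice (3252 against 305 on average) and Sst in 2 of 4, beside the lower Hhex. Isl1, a broad islet factor, was at 1362 against 1349. Neurog3 was lower in 3 of 4 mice and higher in 2-week mouse 1 (149 against 30.3). Among 7 receptors 1 was higher, Ffar4 (140 against 49.7), and 1 was lower, Ffar2 (162 against 249). Among 8 hormone genes 4 were higher in 4 of 4 mice and none lower. They were Nucb2, the nesfatin precursor (157 against 39.6), Iapp (42.5 against 3.54), Ppy (8.95 against 3.65) and Cck (87.5 against 3.74). The mean of Cck rested on 4-week mouse 2 (333, against 2.35 to 9.81 in the other mice). Iapp, Ppy and Cck averaged under 5 in the Ghrl-low cells and met the filter only through the Ghrl-high cells. The count of 4 is therefore not read against the background share. Ppy in both sets lay below its mean in the immune-type cells (20.1), and Iapp in 2-week mouse 2 was at 4.91 against 3.54. Acinar markers summed to 9171, 2836, 14223 and 7837 non-Ghrl CPM in the Ghrl-high cells and 18532, 4703, 8929 and 19812 in the others; their part was not tested.

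Progenitors with and without an Mboat4 UMI were compared in the same manner (9, 32, 16 and 8 cells with; 36, 134, 69 and 87 without). Their median depths were close, at 11688 to 14188.5 UMIs with and 11361 to 14599 UMIs without. Of 10000 genes, 12.8% were higher and 8.81% lower with Mboat4 in all 4 mice. Of 15 endocrine transcription factors, 7 were higher and 1 lower. Isl1 was at 218, 611, 401 and 814 non-Ghrl CPM with Mboat4 and 29.7, 24.9, 82.4 and 46.9 without it. Also higher were Etv1 (171 against 48.3 on average), Rfx6 (211 against 107), St18 (198 against 84.9), Neurod1 (942 against 615), Nkx2-2 (405 against 289) and Myt1 (178 against 111), while Sox4 (1698 against 3982) was lower. Pax6, Fev and Hhex were each higher in 2 mice and lower in 2, and Neurog3 was lower in 3 of 4. Isl1 had the largest gap of the 7. None of 6 hormone genes was higher in all 4 mice. Ghrl, left out of that count, was at 746, 46.8, 113 and 507 with Mboat4 and 126, 16.7, 323 and 61.6 without. It was higher with Mboat4 in 3 of 4 mice, and in the same 3 it lay above the immune-type level. This rested on 8 to 32 cells per mouse with Mboat4, and on single cells. In 2-week mouse 1 the progenitor with 91 of the 174 Ghrl UMIs was among the 9 cells with Mboat4. The higher value of that mouse therefore came mostly from 1 cell. In 4-week mouse 1, where Ghrl was lower with Mboat4, the progenitor with 120 of 285 was among the cells without. Values without these cells were not computed. Acinar markers were lower in the Mboat4-positive cells of all 4 mice (16265, 5689, 4411 and 5887 against 25348, 12433, 4739 and 13608); their part was not tested.

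**Figure D3:**
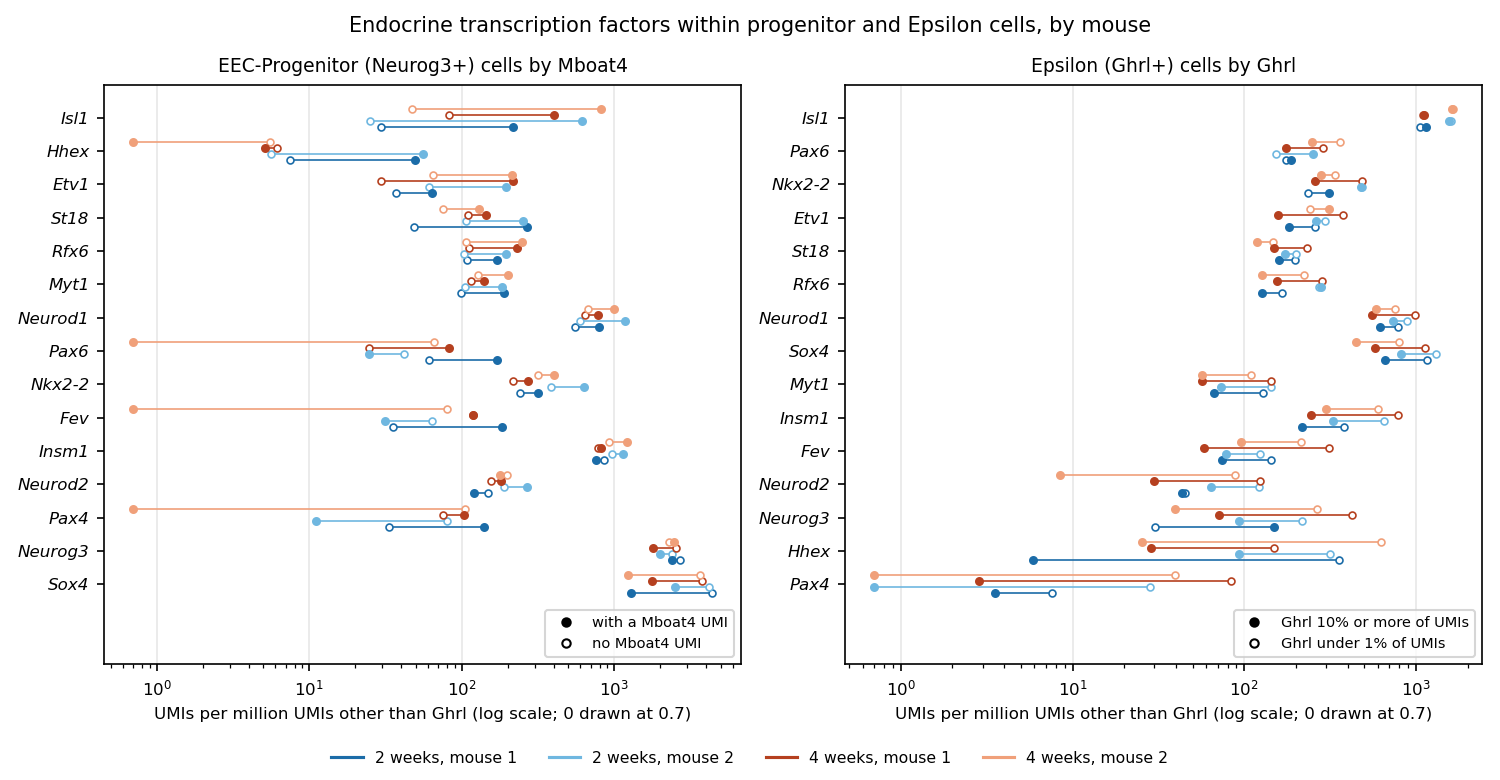
Endocrine transcription factors in counts scaled to the UMIs other than Ghrl (non-Ghrl CPM), log axes, 1 line per mouse from an open to a filled symbol, with 0 drawn at 0.7. Left, progenitors with (filled) against without (open) an Mboat4 UMI; right, Epsilon cells with at least 10% Ghrl (filled) against under 1% (open). Isl1 lies higher in progenitors with Mboat4 in all 4 mice, and Hhex and Pax4 lie lower in Ghrl-high Epsilon cells.

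The genes that make ghrelin from its precursor were all detected in Epsilon cells, and levels here are non-Ghrl CPM. Pcsk1, the convertase known to cut proghrelin, was at 200, 98.0, 216 and 166, present in 71.9% of cells. Pcsk2 was low in Epsilon cells (mean 35.8) and far higher in Delta (803) and Ppy+ cells (1255). Pcsk1n was likewise lower in Epsilon (464) than in Ppy+ cells (3264). Cpe and Scg5 were found in 97.1% and 96.6% of Epsilon cells. Bche was at 11.5, 10.1, 11.2 and 6.01, and Lypla1, a thioesterase reported to deacylate ghrelin, averaged 35.9. Epsilon cells thus had Pcsk1 with little Pcsk2, as did EEC-Progenitor cells (84.3 and 2.90). The receptor Ghsr had 0 UMIs in all 1269 cells of the 5 enteroendocrine subtypes, which allows a share of up to 0.236% of cells with a UMI. Leap2, the peptide antagonist of the receptor, had 0 UMIs in the 377 Epsilon cells, which allows up to 0.796%.

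**Figure D4:**
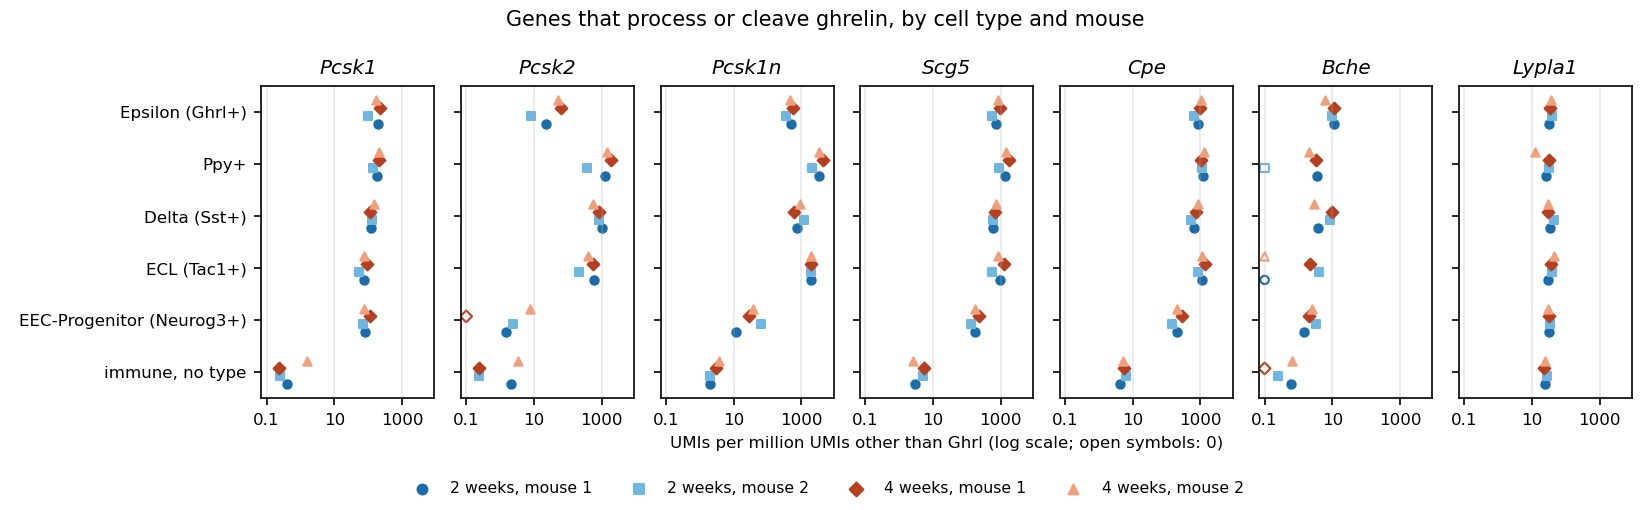
Pcsk1, Pcsk2, Pcsk1n, Scg5, Cpe, Bche and Lypla1 in non-Ghrl CPM, log axis, in the 5 enteroendocrine subtypes and in immune-type cells, 1 symbol per mouse. Epsilon cells have Pcsk1 with little Pcsk2, and Delta and Ppy+ cells have much more Pcsk2.

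Of 15 receptors known or reported to act on ghrelin cells, some were clearly present in Epsilon cells and others had few UMIs. The free fatty acid receptors Ffar2 (mean 188, in 77.7% of Epsilon cells) and Ffar4 (109, in 54.4%) led the list, followed by the incretin receptor Gipr (24). Neither of the first pair was particular to Epsilon cells. Ffar4 was higher in Ppy+ (216), Delta (197) and ECL cells (118), and Ffar2 was higher in EEC-Progenitor cells (217) and near in ECL cells (179). Adrb1, the adrenergic receptor through which sympathetic nerves release gastric ghrelin, was at 14.9, 6.41, 36.9 and 15, against a mean of 2.32 in Delta cells. The somatostatin receptors Sstr1 and Sstr2 averaged 14.0 and 12.9. The calcium-sensing receptor Casr was lower in Epsilon (9.88) than in Delta cells (38.8). Lpar1, Ptger4, Mc4r and Sstr5 had 3, 3, 4 and 6 UMIs in Epsilon cells, and Lpar1 and Ptger4 were lower there (both 0.708) than in the immune-type cells (4.87 and 38.1).

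Among endocrine transcription factors, Hhex averaged 147 in Epsilon and 1578 in Delta cells and so differed between the subtypes that both carried Mboat4. Isl1 was alike (1478 and 1588). Neurod1 (703 against 251) and Nkx2-2 (342 against 60.3) were higher in Epsilon cells, and Pax6 (269 against 412) was lower. Neurog3, the progenitor factor, averaged 148 in Epsilon and 2412 in progenitor cells. Lmx1a had 0 UMIs in Epsilon cells. Of the other hormones Pyy had the highest mean in Epsilon cells, at 58.4, 460, 157 and 2205, and most of its mean of 720 came from 4-week mouse 2; in 2-week mouse 1 Gip (191) and Nucb2 (142) were above it. Nucb2 averaged 111 and was found in 61.8% of cells.

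Genes with the pattern most like each member were named by the Pearson correlation of log2(CPM + 5) over 52 units of mouse and cell type, among 5306 genes; units of 1 mouse share a library, and r is descriptive. For Ghrl the closest were Fxyd2 (0.876), Gm11837 (0.844), Ina (0.841), Gm30648 (0.832), Isl1 (0.818), Trp53cor1 (0.816), Maged2 (0.802) and Irs4 (0.794). For Mboat4 they were Trp53cor1 (0.958), Nefm (0.945), Isl1 (0.936), D930028M14Rik (0.935), Zcchc12 (0.924), Gm11837 (0.922), Pla2g2d (0.916) and Rapgef4 (0.916). Isl1, Trp53cor1 and Gm11837 were named for both. Mboat4 ranked 16 for Ghrl (r = 0.759). Irs4, an insulin receptor substrate, was at 176 CPM in Epsilon cells against 10.0 in Delta and 3.81 in Ppy+ cells, and Trp53cor1, a long noncoding RNA, was at 130, 73.0 and 14.6 CPM.

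Time on caerulein was tested within each type with edgeR's quasi-likelihood test on the summed counts, 4 weeks over 2 weeks. Neither gene passed an adjusted p of 0.05 in any of 20 tests over 14 types and subtypes (14 of Ghrl, 6 of Mboat4). The share of all genes called was 0% in Epsilon cells (0 of 9498 genes), 0.159% in Ppy+, 0.0154% in Delta, 0.0453% in EEC-Progenitor, 0.0816% in ECL, 0.114% in Tuft-3 and 0.00995% in Acinar.Prolif cells, and 0% in the other types, so calls were rare for any gene. With DESeq2, 1 of 24 results with an adjusted p passed, Ghrl in Tuft-3 cells. At an unadjusted p under 0.05 edgeR had 3. On simulated counts of the Epsilon comparison, 129 of 200 genes changed 4-fold were recovered, with 7 false calls. The simulation set the same dispersion for every gene and did not copy the spread of Ghrl between mice. It therefore does not give the power for Ghrl.

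In Epsilon cells Ghrl had a log2 difference of 1.00 (SE 1.21, edgeR adjusted p = 0.999); the mice of the 2 times overlapped, since 2-week mouse 1 lay above 4-week mouse 2. Mboat4 had a log2 difference of -0.17 (SE 0.186, edgeR adjusted p = 0.999). The share of Epsilon cells with an Mboat4 UMI was 89.3% at 2 weeks and 81.0% at 4 weeks, a difference of -8.31 percentage points whose exact two-sided permutation p of 0.333 is the smallest that 2 mice against 2 allow. Thinned to 1500 UMIs the shares overlapped, with means of 32.7% and 26.6%. The Epsilon share of the enteroendocrine subtypes was 38.3%, 22.2%, 32.9% and 28.5%, with means of 30.2% and 30.7% (exact permutation p = 1). None of 52 such comparisons of shares could pass, and the smallest Benjamini-Hochberg adjusted exact p was 0.825. No difference in either gene between the times was thus detectable in Epsilon cells with 2 mice each.

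The lowest p for Mboat4 was in Ppy+ cells, at 86.1 and 47.5 CPM at 2 weeks and 22.3 and 10.3 CPM at 4 weeks, with a log2 difference of -1.82 (SE 0.428, edgeR adjusted p = 0.277). Both 4-week mice lay below both 2-week mice, as they did for 30.9% of genes in these cells. The share with an Mboat4 UMI was 42.5% against 14.6% (exact permutation p = 0.333), and the share of Ppy+ cells with at least 1% Ghrl was 56.3% against 23.8%. Without 2-week mouse 2 the edgeR adjusted p was 0.000105 and without 4-week mouse 1 it was 0.00377, so the call depended on which mice entered. For Ghrl in Ppy+ cells the log2 difference was -0.69 (edgeR adjusted p = 0.926), and without 4-week mouse 1 it was -1.57 (adjusted p = 2.32e-12).

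Ghrl in Tuft-3 cells had the smallest p of all, with 127 and 112 CPM at 2 weeks and 60.9 and 36.1 CPM at 4 weeks (both below both 2-week mice, as for 16.3% of genes there), a log2 difference of -1.33 (SE 0.232, edgeR adjusted p = 0.0781; DESeq2 adjusted p = 0.0451). The immune-type cells of the same mice had 236, 33.3, 320 and 100.5 CPM, so Tuft-3 cells lay above their own background in 2-week mouse 2 only. In EEC-Progenitor cells Mboat4 had a log2 difference of -0.91 (SE 0.311, edgeR unadjusted p = 0.0116, adjusted p = 0.716).

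The lists around the 2 genes were read from the same fits. In Epsilon cells none of 9 ghrelin-processing genes, 7 receptors, 15 transcription factors and 10 hormones passed with edgeR; their median log2 differences were 0.37, 0.32, 0.03 and 1.19, beside 0.00 over all genes, of which 360 had an unadjusted p under 0.05. In Ppy+ cells 2 of 10 hormones were higher at 4 weeks, 1 of 13 transcription factors was lower and none of 8 processing genes was called. Over all genes tested in Ppy+ cells, 10 of 6283 (0.159%) were called. Gcg, the glucagon gene, had 0 UMIs in both 2-week mice, while 12 of 45 and 4 of 35 Ppy+ cells had it in the 4-week mice (edgeR adjusted p = 8.19e-07). Ppy rose by 1.57 (log2, SE 0.231, edgeR adjusted p = 0.0466). It was not called without the top 5% of cells by UMIs (log2 1.78, edgeR adjusted p = 0.277). Without the robust option the difference was the same but was not called (edgeR adjusted p = 0.185). Hhex fell by 2.08 (log2, SE 0.266, edgeR adjusted p = 0.00547), likewise the same but not called without the robust option (adjusted p = 0.0712). It was found in a minority of Ppy+ cells (11 of 40, 5 of 20, 5 of 45 and 5 of 35). Only 6, 3, 1 and 0 cells had 10 or more Hhex UMIs, so the difference rested on few cells. These 3 genes were thus the only list members called in Ppy+ cells.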

How the data were processed

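The authors deposited unnormalized UMI counts for each cell, in a merged table and 2 smaller ones that were identical to it over the same cells, with cell type labels. Cell Ranger 4.0.0, Seurat 3.2.3 and mm10 are named in the submitters' processing notes; the gene annotation was not given in the sources used here. Libraries used 10x 3' v3.1 chemistry, per the labels' protocols. Positions and sequences were read from GRCm38 with GENCODE vM21, matched by symbol.

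Counts were summed per mouse and deposited type or subtype, and levels are CPM or CPM over the UMIs other than Ghrl. The mouse was the replicate (n = 2 per time). Types with at least 20 cells in each mouse were tested with edgeR 4.0.16 (quasi-likelihood, robust, TMM, filterByExpr; limma 3.58.1, R 4.3.3), with Benjamini-Hochberg adjustment over all genes of the type at 0.05. Shares were compared by exact permutation of mice and thinned shares are exact expectations at 1500 UMIs (Python 3.11.15, numpy 2.4.6, scipy 1.17.1, pandas 2.3.3). Intervals are exact binomial at 95%; a count of 0 allows 3 counts. Fits were checked on simulated data. No doublet caller was run, and an alternative left out the top 5% of cells by UMIs. Other alternatives were DESeq2 1.42.0, other scalings, no filter on low counts, and each mouse left out.

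The genes named are Ghrl, Mboat4, the genes of 4 lists (ghrelin processing and reception, receptors of ghrelin cells, endocrine transcription factors, hormones) and the 8 genes most like each member. The members and lists were chosen with earlier results of these data known; 2 transcription factors of the lists are not reported here. The comparisons of Epsilon cells by Ghrl share, of progenitors by Mboat4 and of Gcg, Hhex and Ppy over settings were added after seeing the data.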

Additional observations from a re-analysis of the deposited data

Results flagged for a closer look

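Of the 7778 cells without a deposited type, 147 (1.89%) had at least 1% of their UMIs in Ghrl, by mouse 13, 25, 58 and 51. In the immune-type cells used as background the number was 3 of 2729 (0.110%), so the signal lay above the level in the control cells although these cells enter no comparison. Their median depth was 1930 UMIs against 4083 in the other untyped cells, and 108 had under 3000 UMIs. An Mboat4 UMI was found in 29 of them, a Chga UMI in 76 and an EYFP UMI in 17. Among those with at least 3000 UMIs, the 16 with EYFP had Mboat4 in 8 and Chga in 16, and the 23 without EYFP had Mboat4 in 14 and Chga in 21. Of the 107 shallower cells without EYFP, Mboat4 was found in 7 and Chga in 38. The share with Mboat4 was thus lower in the shallower cells without EYFP. Among the cells with at least 3000 UMIs it did not follow depth. The 16 with EYFP had the smaller share at a median of 35364.5 UMIs, against 5172 in the 23 without. The part of depth was not tested.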

How the results depend on the processing

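No paired analysis was possible because the labels give no replicate numbers shared between the 2 times. Of 264 values recomputed under an alternative, 206 kept their direction and side of the threshold or moved by less than the criterion. Mean Epsilon Ghrl ranged from 123670 to 223393 CPM over its alternatives and Mboat4 from 221 to 309 CPM. The number of tests of the 2 genes that passed, 0 with edgeR, was 1 with DESeq2, 2 without the filter on low counts, 1 without the top 5% of cells by UMIs and 1 to 4 with a mouse left out.

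Directions that reversed belonged to differences that had not passed. Without the top 5% of cells, Ghrl was at 0.64 (log2) in ECL and -0.23 in Delta cells. With a mouse left out, the log2 difference of Ghrl ranged from -0.50 (without 2-week mouse 2; -0.45 without 4-week mouse 1) to 3.01 in EEC-Progenitor cells. It ranged from -2.65 to 2.07 in ECL cells, past the threshold at both ends (edgeR adjusted p = 1.19e-26 without 2-week mouse 2 and 1.26e-05 without 2-week mouse 1). In Delta cells it ranged from -0.57 (without 4-week mouse 1, edgeR adjusted p = 0.030) to 1.21 (without 4-week mouse 2, adjusted p = 2.48e-15), in Epsilon cells from 0.26 to 2.67 and in Ppy+ cells from -1.57 to -0.12. For Mboat4 the range was -0.60 to 0.28 in Delta, -0.36 to 0.069 (without 2-week mouse 2) in Epsilon and -2.55 to -1.31 in Ppy+ cells. Ghrl in Ductal-like cells was at -6.22 (edgeR adjusted p = 0.925) and at -7.21 without 2-week mouse 2 (adjusted p = 4.95e-81), resting on 1 mouse. With a mouse left out, 1 time has a lone mouse that is assumed to vary like the others. The Epsilon share differed by -0.0292 points over all typed cells, and the share of the enteroendocrine subtypes by -7.60 to 8.53 points with a mouse left out; the share with Mboat4 differed by -12.6 to -4.04 points. The cause was not tested.

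Genes called over time in all genes moved as well: EEC-Progenitor 4 (DESeq2 10, no filter 50, a mouse left out 12 to 195), ECL 6 (12, 54, 7 to 155; not robust 0), Delta 1 (2, 24, 29 to 50), Ppy+ 10 (no filter 60, not robust 1, a mouse left out 41 to 141) and Epsilon 0 (1, 22, 0 to 244). Without the filter Ghrl in Tuft-3 (adjusted p = 7.74e-08) and Mboat4 in Ppy+ cells (0.00132) passed with edgeR, and without the top 5% of cells Mboat4 in Ppy+ cells passed (0.0490), whereas Ppy there, with a larger log2 difference of 1.78, did not (0.277). Depth limits Mboat4 in particular, with 5 to 51 UMIs per mouse in Ppy+ cells.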
